A study of Mus musculus with 12 samples.

Results

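T cell receptor gene segments were read out in bulk RNA of mouse mesothelioma tumours from mice given anti-CD4 or PBS. The rows were chosen by name, as variable, joining or constant segments of the alpha, beta, gamma and delta chains with a summed estimated count of at least 1 over the 12 tumours, and 174 of 35999 rows met this. They were 75 alpha variable (Trav), 55 alpha joining (Traj) and 1 alpha constant (Trac) rows, 20 beta variable (Trbv), 14 beta joining (Trbj) and 2 beta constant (Trbc1, Trbc2) rows, 5 delta variable (Trdv) rows, Trdc and the gamma variable row Trgv2. The tumours were AB1-HA, a transplantable mesothelioma line of BALB/c origin that carries influenza haemagglutinin, grown under the skin of male BALB/c mice aged 8 to 10 weeks. The anti-CD4 group (6 tumours) came from mice that received anti-CD4 antibody at 100 µg a dose, and the PBS group (6 tumours) from mice given PBS, both on days -3, 0 and 7 relative to inoculation, and tumours were taken on day 9. All 12 tumours were of the same line.

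Each T cell assembles its receptor by joining 1 variable segment to a joining segment, with a diversity segment between them in beta and delta chains, and then splicing the product to a constant region. Most T cells carry an alpha and a beta chain and bear CD4 or CD8, and a smaller population carries a gamma and a delta chain. Constant region genes are therefore shared by all cells that use a chain, while a variable or joining segment is used by only some clones.

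The segments were rare in these libraries. Their counts summed to 5828, in libraries of 30.75 to 62.06 M counts, and the anti-CD4 libraries (34.45 to 62.06 M) tended to be deeper than the PBS libraries (30.75 to 41.93 M). Levels are counts scaled to library size by TMM (CPM), and 3 counts in a tumour corresponded to 0.0510 to 0.0938 CPM. Cd4 itself, the target of the antibody, was at 0.631 to 2.12 CPM in the anti-CD4 tumours and at 4.36 to 9.92 CPM in the PBS tumours, with no overlap. Some tumours stood apart. Anti-CD4 3 and anti-CD4 4 had the highest summed segment levels of their group, at 10.6 and 14.9 CPM against 2.85 to 5.90 CPM in the other 4, and PBS 6 had the highest of its group, at 28.7 CPM against 11.7 to 18.1 CPM in the other 5. In bulk RNA, fewer cells of a type cannot be told apart from less RNA per cell. The labels do not say which mouse each tumour came from, so p-values measure the spread between these tumours.

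Constant region genes carried most of the signal and were lower on average in the anti-CD4 tumours. Only these 4 rows (Trac, Trbc1, Trbc2 and Trdc) had enough counts to be tested, and the other 170 were too low. Of the 4, Trdc alone was called, meaning a p under 0.05 in edgeR's quasi-likelihood test after Benjamini-Hochberg adjustment over all 17940 tested genes, of which 5.28% were called in either direction and 2.33% were called lower. The remaining 3 were also lower in the mean.

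Trac, the alpha constant region on chromosome 14 (54220521 to 54224206, plus strand, GRCm38), had a lowest, median and highest level of 0.544, 1.07 and 3.44 CPM in anti-CD4 tumours, against 2.03, 2.79 and 5.09 CPM in PBS tumours. Anti-CD4 3 and 4 lay within the PBS range and the other 4 anti-CD4 tumours below it. The mean was 1.51 ± 1.10 CPM in anti-CD4 tumours and 3.22 ± 1.14 CPM in PBS tumours (SD, n = 6 each). The log2 fold change was -1.09 with an SE of 0.40 (edgeR adjusted p = 0.108). The difference did not pass the threshold with all 12 tumours. Of the 12 single omissions, only that of anti-CD4 4 passed the threshold, at a log2 fold change of -1.53 (edgeR adjusted p = 0.0333). The highest edgeR adjusted p over these omissions was 0.229, without PBS 6. Without anti-CD4 3 and 4 together the log2 fold change was -1.90 (edgeR adjusted p = 0.00573). These 2 tumours had the highest segment levels of their group, so leaving them out was bound to widen the difference.

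Trbc1 and Trbc2, the tandem beta constant regions on chromosome 6 (41538218 to 41539881 and 41546730 to 41548352, plus strand), each follow their own cluster of joining segments. Trbc1 was at 0.331, 0.650 and 2.85 CPM (lowest, median, highest) in anti-CD4 tumours and at 2.06, 2.60 and 4.80 CPM in PBS tumours. Only anti-CD4 4 reached the PBS range. Its mean was 1.04 ± 0.94 CPM in anti-CD4 tumours and 2.88 ± 0.97 CPM in PBS tumours (SD, n = 6 each). The log2 fold change was -1.47 with an SE of 0.45 (edgeR adjusted p = 0.0683), and it was -2.11 without anti-CD4 4 (edgeR adjusted p = 0.00925). No other single omission passed the threshold for Trbc1, with edgeR adjusted p-values up to 0.152. Trbc2 was at 0.723, 1.5 and 3.06 CPM in anti-CD4 tumours and at 1.63, 2.46 and 5.84 CPM in PBS tumours, with 3 anti-CD4 tumours below every PBS tumour. Its means of 1.69 ± 0.97 CPM in anti-CD4 tumours and 3.06 ± 1.66 CPM in PBS tumours (SD, n = 6 each) gave a log2 fold change of -0.86 with an SE of 0.42 (edgeR adjusted p = 0.198).

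Trdc, the delta constant region, lies inside the alpha locus on chromosome 14 (54142851 to 54148868, plus strand). It was at 0.534, 0.855 and 1.04 CPM in anti-CD4 tumours, against 0.945, 1.47 and 2.81 CPM in PBS tumours. The groups overlapped through anti-CD4 3 and PBS 4 alone, and PBS 6 was the highest. The mean was 0.795 ± 0.212 CPM in anti-CD4 tumours and 1.63 ± 0.63 CPM in PBS tumours (SD, n = 6 each). The log2 fold change was -1.04 with an SE of 0.27 (edgeR adjusted p = 0.0413). The call depended on which tumours were fitted. It was lost without anti-CD4 2, 4, 5 or 6 or PBS 2, 3, 5 or 6, with edgeR adjusted p-values between 0.0522 and 0.106 and log2 fold changes between -1.16 and -0.82 over all 12 single omissions. It was also lost when the library total (log2) entered as a covariate (edgeR adjusted p = 0.279), at a nearly equal log2 fold change of -1.02, in a fit that called 5 of all 17940 genes. The 3′ end of Trdc (up to 54148868) overlaps Trdv5 (from 54148662) on the opposite strand. No strand setting is known here, so reads from this shared stretch cannot be told apart. Trdv5 held 15.8 counts against the 581 of Trdc.

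**Figure D1:**
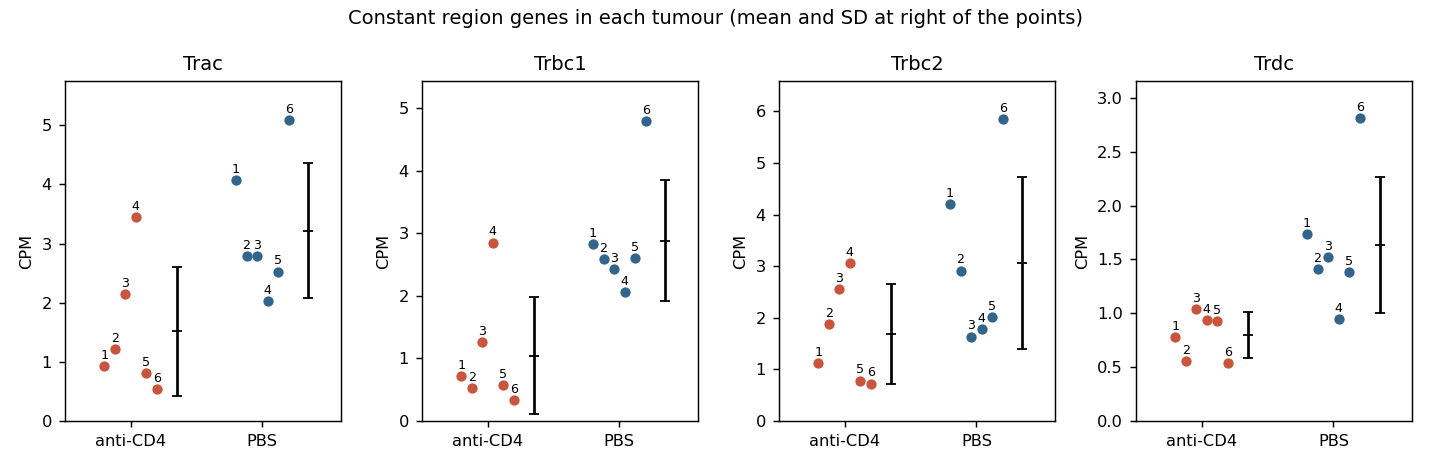
Level of each constant region gene (CPM, vertical axes starting at 0) in the 6 anti-CD4 tumours at left and the 6 PBS tumours at right of each panel, with the tumour number above each point and the mean and SD beside each group. Anti-CD4 4 is the highest anti-CD4 tumour for Trac, Trbc1 and Trbc2 but not for Trdc, and PBS 6 is the highest of its group for all 4 genes.

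Levels of different genes can be set side by side only per length. Per kilobase of annotated exon, mean levels in anti-CD4 tumours and PBS tumours were 2.44 and 4.43 CPM for Trbc2, 1.62 and 3.44 CPM for Trac, 1.39 and 3.85 CPM for Trbc1, and 0.206 and 0.423 CPM for Trdc, whose annotated exons are long (3865 bases, against 935 for Trac). The delta constant region was thus the lowest of the 4 per length in both groups.

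Summed by locus, the alpha and the beta segments were also lower in the mean, and the delta sum was called. The delta locus (Trdv and Trdc) averaged 0.924 ± 0.280 CPM in anti-CD4 tumours and 1.95 ± 0.75 CPM in PBS tumours (SD, n = 6 each). Its log2 fold change was -1.08 (SE 0.27, edgeR adjusted p = 0.0369), and 5 of the 6 anti-CD4 tumours lay below every PBS tumour. This call was lost without anti-CD4 2, 5 or 6 or PBS 2, 3, 5 or 6, with edgeR adjusted p-values between 0.0558 and 0.0934. The alpha locus averaged 2.78 ± 1.77 CPM in anti-CD4 tumours and 6.96 ± 2.26 CPM in PBS tumours, with a log2 fold change of -1.33 and an SE of 0.37 (edgeR adjusted p = 0.0531), and only anti-CD4 4 lay inside the PBS range. The beta locus averaged 3.70 ± 2.53 CPM in anti-CD4 tumours and 8.14 ± 3.11 CPM in PBS tumours, with a log2 fold change of -1.14 and an SE of 0.42 (edgeR adjusted p = 0.110). Without anti-CD4 4, both passed the threshold (alpha -1.69, edgeR adjusted p = 0.0202; beta -1.53, edgeR adjusted p = 0.0455). The alpha locus also passed without PBS 1 (edgeR adjusted p = 0.0433). No other single omission passed for either locus, with edgeR adjusted p-values up to 0.123 for alpha and 0.229 for beta. Summed separately, the variable and joining segments of the alpha locus were called lower (log2 fold change -1.57, edgeR adjusted p = 0.0272), and those of the beta locus were not (-1.19, edgeR adjusted p = 0.128).

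Summed joining segments did not overlap between the groups, unlike the constant regions. The summed Traj level was 0.442, 0.795 and 1.29 CPM (lowest, median, highest) in anti-CD4 tumours and 2.04, 2.36 and 4.91 CPM in PBS tumours. The summed Trbj level was 0.0340, 0.420 and 0.833 CPM in anti-CD4 tumours and 1.0, 1.29 and 2.43 CPM in PBS tumours. In neither class did the groups overlap, and among single tested genes 1.2% had every anti-CD4 tumour below every PBS tumour. The anti-CD4 mean was 29.8% of the PBS mean for Traj and 29.0% for Trbj, beside 47.0% for Trac and 45.9% for the summed beta constant regions. PBS 6 had the highest sum of both classes, and the lowest PBS sums, those of PBS 1 and PBS 4, set the gap between the groups. Taken relative to the constant region in each tumour, the groups overlapped. The ratio of summed Traj to Trac was 0.376 to 1.16 in anti-CD4 tumours, with anti-CD4 1 the highest of all 12, and 0.5 to 1.11 in PBS tumours. The ratio of summed Trbj to the beta constant regions was 0.0323 to 0.219 in anti-CD4 tumours and 0.175 to 0.440 in PBS tumours.

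**Figure D2:**
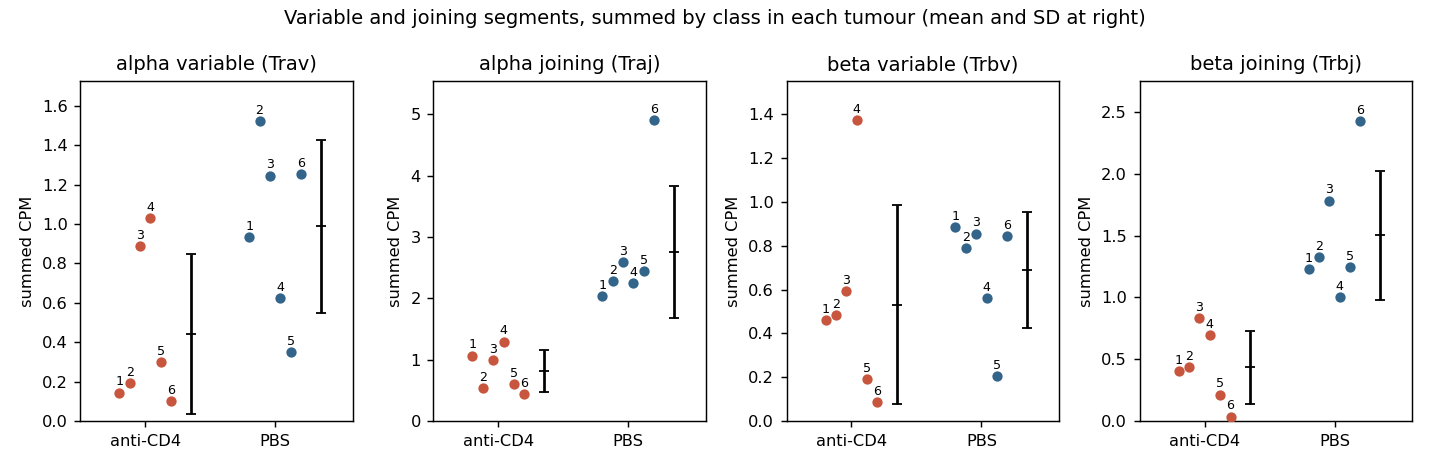
Summed level (CPM, vertical axes starting at 0) of the alpha variable, alpha joining, beta variable and beta joining segments in each tumour, anti-CD4 at left and PBS at right of each panel, with the tumour number above each point and the mean and SD beside each group. The groups do not overlap for the joining classes and overlap for the variable classes.

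Single joining segments held few counts. The segments shown are those with the most counts in each joining class and the Traj pair whose groups did not overlap. Each is the germline segment from the GENCODE M21 transcripts (GRCm38, a C57BL/6 reference, while the mice were BALB/c), plus strand, and the capitals mark the motif TTNGGNNNNGGN, written after the conserved phenylalanine-glycine stretch at the start of the last framework of the variable domain, with the reading frame not checked.
Traj22 (chr14:54197248-54197307): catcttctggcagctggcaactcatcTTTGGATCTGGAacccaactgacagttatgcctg
Traj38 (chr14:54180574-54180635): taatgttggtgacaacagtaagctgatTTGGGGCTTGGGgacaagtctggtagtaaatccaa
Traj28 (chr14:54191661-54191725): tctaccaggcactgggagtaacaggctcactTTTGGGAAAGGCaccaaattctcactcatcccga
Trbj1-1 (chr6:41533864-41533911): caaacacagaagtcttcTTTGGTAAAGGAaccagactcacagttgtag
Trbj1-5 (chr6:41535084-41535133): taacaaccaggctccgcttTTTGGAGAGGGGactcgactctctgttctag
Trbj1-6 (chr6:41535554-41535606): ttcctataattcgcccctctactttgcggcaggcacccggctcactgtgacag
Searched on the coding strand only, the motif was found in 46 of the 60 annotated Traj segments (76.7%) and in 11 of the 14 Trbj segments (78.6%), and Trbj1-6 does not hold these letters. A match is of letters only. In Traj38 the capitals start with TTG, which is not a phenylalanine codon, so they do not mark a phenylalanine-glycine stretch.

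Traj22 had 2 counts in each of anti-CD4 4 and 5 and 0 in the other 4 anti-CD4 tumours, against 3 to 6 counts in every PBS tumour. Traj38 had at most 2 counts in any anti-CD4 tumour, against 2 to 15 in PBS tumours, and after scaling every anti-CD4 tumour lay below every PBS tumour for both. These were 2 of the 174 segments, beside 0.907% of all 27339 rows with a summed count of at least 1, so their number is close to the background. Traj28 had the most counts of its class, with 4 over the anti-CD4 tumours and 35 over the PBS tumours, but 29 of the 35 came from PBS 3 and PBS 6 (14 and 15 counts). Traj7 and Traj17 had 11 counts each in anti-CD4 tumours, against 26 for Traj7 and 20 for Traj17 in PBS tumours. In total, 51 of the 55 Traj and all 14 Trbj members had a lower mean in the anti-CD4 tumours, beside 52.7% of these 27339 rows. Segments of a locus can vary together between tumours, so they are not separate observations.

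The mouse Traj segments lie in a row before Trac, the farthest at 65.4 kb and the nearest at 2.62 kb, and a cell that rearranges again moves toward Trac. The 15 members within 20 kb of Trac summed to 0.42 ± 0.16 CPM in anti-CD4 tumours and 0.94 ± 0.33 CPM in PBS tumours (SD, n = 6 each), or 45.0% of the PBS mean, with overlap. The 18 members from 20 to 40 kb summed to 0.258 ± 0.141 CPM in anti-CD4 tumours and 1.25 ± 0.47 CPM in PBS tumours (20.8%), and the 22 members beyond 40 kb to 0.140 ± 0.087 CPM in anti-CD4 tumours and 0.570 ± 0.341 CPM in PBS tumours (24.6%). For these farther stretches the groups did not overlap. The limits of the stretches were chosen with segment counts already seen, and the difference between stretches was not tested. Traj segments annotated as pseudogenes held 25 of the 215 Traj counts of anti-CD4 tumours and 63 of the 618 of PBS tumours. Whether Traj counts follow the use of segments in joined receptors, or repeated joining, was not tested.

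**Figure D3:**
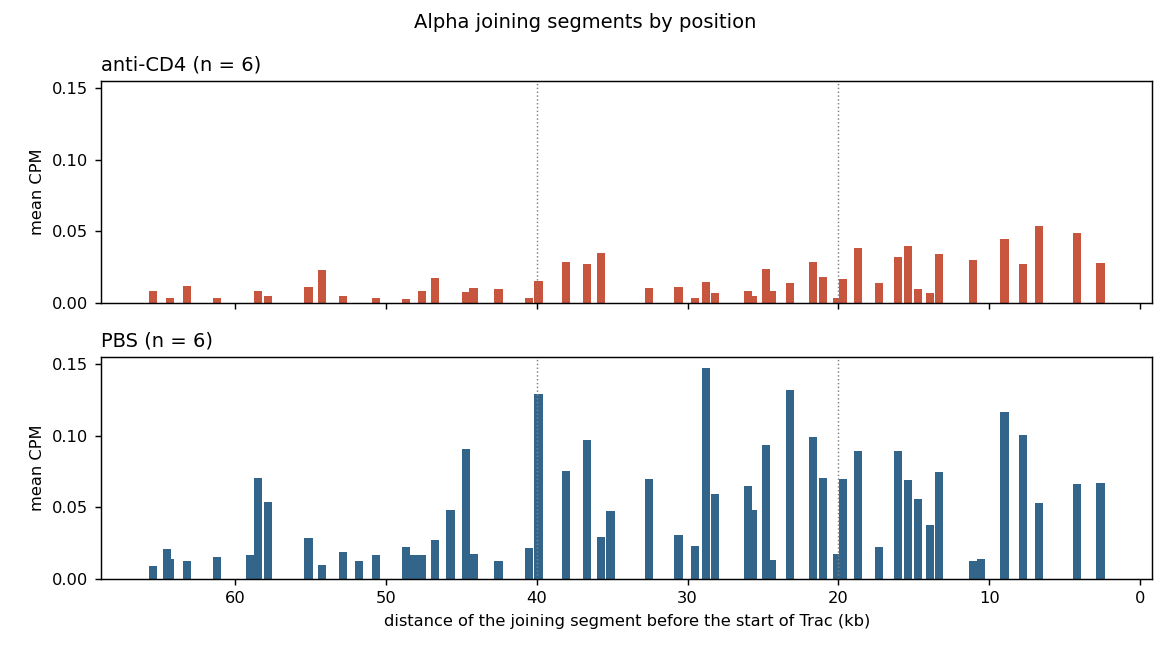
Mean level (CPM, same vertical scale starting at 0) of each Traj segment over the 6 anti-CD4 tumours in the upper panel and the 6 PBS tumours in the lower panel, against its distance before the start of Trac (kb, nearest at right); dotted lines mark 20 and 40 kb. Bars are lower in the upper panel over most of the range, and the means of 20 to 40 kb sum to 0.258 CPM above and 1.25 CPM below.

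Trbj segments fall into a first cluster before Trbc1 and a second before Trbc2. The first held 383 counts and the second 67, and neither level per length nor use per cell follows from such sums. The first cluster averaged 0.365 ± 0.243 CPM in anti-CD4 tumours and 1.28 ± 0.51 CPM in PBS tumours (SD, n = 6 each), with no overlap. The second averaged 0.0710 ± 0.0623 CPM in anti-CD4 tumours and 0.219 ± 0.056 CPM in PBS tumours, with 1 anti-CD4 tumour within the PBS range. Trbj1-1 had 17 counts over the anti-CD4 tumours and 63 over the PBS tumours. PBS 2 gave 21 of these, out of its 47 Trbj counts (44.7%, 95% Wilson interval 31.4 to 58.8%). Over the anti-CD4 tumours, Trbj1-6 had 22 counts, Trbj1-5 11, Trbj1-7 17 and Trbj1-2 8. Over the PBS tumours, Trbj1-6 had 50 counts, Trbj1-5 59, Trbj1-7 39 and Trbj1-2 35, so each was higher there. Intervals and floors cover counting error only.

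Variable segments did not separate the groups. The summed Trav level was 0.102, 0.246 and 1.03 CPM (lowest, median, highest) in anti-CD4 tumours and 0.348, 1.09 and 1.52 CPM in PBS tumours, with anti-CD4 3 and 4 inside the PBS range. The summed Trbv level was 0.0850, 0.473 and 1.37 CPM in anti-CD4 tumours and 0.203, 0.817 and 0.884 CPM in PBS tumours, and anti-CD4 4 was the highest of all 12. The mean of anti-CD4 tumours was 44.8% of the PBS mean for Trav and 77.0% for Trbv. A lower mean in anti-CD4 tumours was found for 50 of 75 Trav and 11 of 20 Trbv members, and for 136 of all 174 segments, beside 52.7% of all rows with a summed count of at least 1.

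Some beta variable segments took a large part of the Trbv counts of a single tumour. The 3′ ends of those that led most clearly, and of a family relative, are given from the GENCODE M21 transcripts (GRCm38, plus strand), with the codon of the conserved cysteine before the hypervariable junction in capitals.
Trbv1 (chr6:40891826-40891885): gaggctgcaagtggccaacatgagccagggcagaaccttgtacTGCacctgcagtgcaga
Trbv13-3 (chr6:41130526-41130585): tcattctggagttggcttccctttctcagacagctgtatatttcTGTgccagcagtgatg
Trbv13-2 (chr6:41121773-41121832): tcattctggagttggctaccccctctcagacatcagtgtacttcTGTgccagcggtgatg
Trbv1 took 29 of the 69 Trbv counts of anti-CD4 4 (42.0%, 95% Wilson interval 31.1 to 53.8%), against 0 to 5 counts in each of the other 11 tumours. Trbv14 had 12 counts in the same tumour and at most 4 in any other. Trbv13-3 took 17 of the 36 Trbv counts of PBS 1 (47.2%, 95% Wilson interval 32.0 to 63.0%), against at most 2 in any other tumour, and Trbv13-2 took 9 of the 22 counts of anti-CD4 3 (40.9%, 23.3 to 61.3%). These leaders differed between tumours of the same group. Some segment must have the most counts in each tumour, and the intervals do not allow for that choice. Other leaders held few counts, such as 2 of 9 in anti-CD4 5, 2 of 5 in anti-CD4 6 and 2 of 7 in PBS 5.

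**Figure D4:**
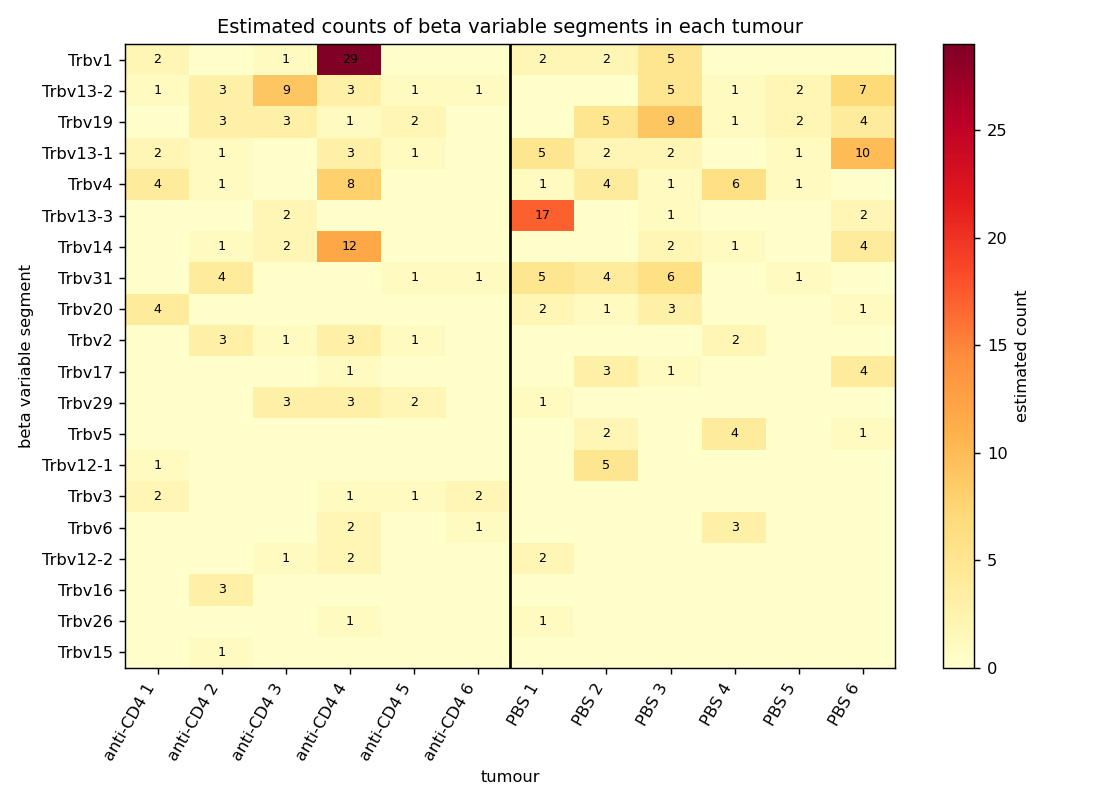
Estimated counts of the 20 Trbv segments (rows, from most to fewest counts) in each tumour (columns, anti-CD4 at left and PBS at right of the line), with colour and number giving the count and blank cells at 0. Trbv1 with 29 counts in anti-CD4 4 and Trbv13-3 with 17 counts in PBS 1 are the highest cells.

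The remaining leading Trbv members were spread over tumours. Over the anti-CD4 tumours Trbv19 had 9 counts, Trbv13-1 had 7 and Trbv4 had 13, and over the PBS tumours Trbv19 had 21, Trbv13-1 had 20 and Trbv4 had 13. Among Trav, Trav7-2 had 2 counts in anti-CD4 tumours and 21 in PBS tumours, of which 12 were in PBS 3. Trav13-2 had 12 counts in anti-CD4 tumours and 7 in PBS tumours, Trav8d-1 had 4 in anti-CD4 tumours and 14 in PBS tumours, and Trav3-3 had 8.76 in anti-CD4 tumours and 9 in PBS tumours. Trav22, annotated as a pseudogene, had 0 counts in the 6 anti-CD4 tumours and 15 over 5 PBS tumours. The mouse Trav locus holds near-identical copies, so counts of single Trav members are uncertain. Of the 174 segments, 99 had fewer than 10 counts in all, 39 had counts in PBS tumours only and 11 in anti-CD4 tumours only. All segments together held 3863 counts in PBS tumours and 1965 in anti-CD4 tumours, so more segments found in PBS tumours only follow from the totals. The share of all rows found in 1 group only was not counted, so these numbers are no result about single segments.

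Several segments have known roles or histories. In BALB/c mice, T cells with Trbv26, Trbv12-1, Trbv12-2, Trbv16 or Trbv15 are largely deleted by superantigens of endogenous retroviruses. These 5 segments together held 9 of the 141 Trbv counts of the anti-CD4 tumours and 8 of the 157 of the PBS tumours. Of the invariant chain of natural killer T cells, Traj18 had 5 counts in anti-CD4 tumours and 16 in PBS tumours, while Trav11 and Trav11d summed to under 1 count each. Of the invariant chain of mucosal-associated invariant T cells, Trav1 had 0 counts in anti-CD4 tumours and 6 in PBS tumours, and Traj33 had 0 in anti-CD4 tumours and 10 in PBS tumours. A count of 0 in an anti-CD4 tumour allows up to 0.0510 to 0.0864 CPM there. All of these segments were too low to be tested.

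Delta and gamma variable segments were equally sparse. Trdv4, the delta segment used by many tissue gamma delta T cells, was found in all 12 tumours, with 1 to 7 counts in anti-CD4 tumours and 1 to 6 in PBS tumours (19 in all over anti-CD4 tumours and 25 over PBS tumours). Trdv2-2 had 3 counts in anti-CD4 tumours and 19.5 in PBS tumours, Trdv3, a pseudogene, had 7.60 in anti-CD4 tumours and 13.0 in PBS tumours, and Trdv2-1 had 0 in anti-CD4 tumours and 1.53 in PBS tumours. Trgv2 had 3.45 counts in anti-CD4 tumours and 8 in PBS tumours. The gamma constant and remaining variable genes carry the older prefix Tcrg in the table and so are outside the naming rule. The 4 Tcrg-C genes averaged 0.399 ± 0.301 CPM in anti-CD4 tumours and 0.783 ± 0.354 CPM in PBS tumours (SD, n = 6 each). With all Tcrg rows added, the gamma locus had a log2 fold change of -1.01 (edgeR adjusted p = 0.135).

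Shares among the constant regions did not differ past the threshold between the groups in any of 3 exact two-sided permutation tests over the 924 assignments of the tumours, whose smallest possible p is 0.00216. Trac made up 35.2 ± 1.7% of the Trac, Trbc1 and Trbc2 counts in anti-CD4 tumours and 35.6 ± 2.9% in PBS tumours (SD, n = 6 each, exact permutation p = 0.797, adjusted 0.797). The 12 tumours lay between 32.4 and 40.7%, although their Trac level spanned 0.544 to 5.09 CPM. Trdc made up 19.0 ± 7.9% of all 4 constant regions in anti-CD4 tumours and 15.2 ± 1.7% in PBS tumours (exact permutation p = 0.286, adjusted 0.429). This share ran from 9.11% in anti-CD4 4 to 30.0% in anti-CD4 5, and from 13.5 to 18.2% in PBS tumours. With counts divided by exon length, the difference between anti-CD4 and PBS tumours was 1.13 percentage points in place of 3.81 (exact permutation, adjusted p = 0.409).

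Trbc1 made up 36.0 ± 9.3% of the beta constant counts in anti-CD4 tumours and 50.4 ± 7.4% in PBS tumours (SD, n = 6 each). The difference of -14.4 percentage points had an exact permutation p of 0.0195 and an adjusted p of 0.0584. The share was 21.7, 36.1 and 48.2% (lowest, median, highest) in anti-CD4 tumours and 40.2, 50.3 and 59.7% in PBS tumours, and 4 anti-CD4 tumours lay below every PBS tumour. Only 2 of the 12 single omissions passed the threshold. Their adjusted exact permutation p was 0.0195 without anti-CD4 4 and 0.0390 without PBS 1. All other single omissions did not pass, with adjusted exact permutation p-values between 0.0584 and 0.117. With a replicate block the adjusted exact permutation p was 0.0938. The tandem genes share almost all of their coding sequence: the first 360 bases differ at 1 position, shown in capitals in the 60-base windows around it (GENCODE M21 transcripts, GRCm38, plus strand).
Trbc1 (chr6:41538447-41538506): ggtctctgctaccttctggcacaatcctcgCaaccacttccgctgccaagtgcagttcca
Trbc2 (chr6:41546959-41547018): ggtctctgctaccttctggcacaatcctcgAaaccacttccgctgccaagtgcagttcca
Reads from such stretches were divided between the genes by the authors' estimation, so single values of Trbc1 and Trbc2, and this share, are uncertain.

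Fewer different segments were found in the anti-CD4 tumours on average. The number with at least 1 count was 27, 43 and 82 (lowest, median, highest) in anti-CD4 tumours and 59, 79 and 95 in PBS tumours, with anti-CD4 3 and 4 in the PBS range. Brought to the lowest library total, the expected number was 18.8, 36.7 and 65.5 in anti-CD4 tumours and 58.7, 72.9 and 91.0 in PBS tumours, with only anti-CD4 4 in the PBS range. Joining segments accounted for most of the gap, with a mean of 24.8 ± 9.3 found in anti-CD4 tumours and 44.0 ± 8.2 in PBS tumours (SD, n = 6 each). Variable segments numbered 17.3 ± 9.3 in anti-CD4 tumours and 24.7 ± 7.4 in PBS tumours. These numbers follow the level of the segments as well as their diversity, and the 2 were not separated.

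Receptor levels were then set beside the genes of the receptor complex, with ratios that were chosen after the values had been seen and are given without a test. Cd3e, a signalling chain needed by all T cell receptors, averaged 3.37 ± 2.70 CPM in anti-CD4 tumours and 8.18 ± 3.31 CPM in PBS tumours (SD, n = 6 each), whereas Cd8a, the coreceptor of CD8 T cells, averaged 4.11 ± 2.37 CPM in anti-CD4 tumours and 4.56 ± 1.58 CPM in PBS tumours. The ratio of Trac to Cd3e was 0.327, 0.436 and 0.821 in anti-CD4 tumours and 0.268, 0.396 and 0.530 in PBS tumours (lowest, median, highest), so the groups overlapped. The ratio of Trac to Cd8a was 0.270, 0.358 and 0.430 in anti-CD4 tumours and 0.535, 0.668 and 1.04 in PBS tumours, with no overlap, and anti-CD4 3 and 4 lay with the other anti-CD4 tumours. The ratio of the beta constant regions to Cd8a did not overlap either, at 0.539 to 0.737 in anti-CD4 tumours and 0.838 to 1.80 in PBS tumours. Neither did the ratio of Cd3e to Cd8a, at 0.369 to 1.01 in anti-CD4 tumours and 1.26 to 3.05 in PBS tumours.

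**Figure D5:**
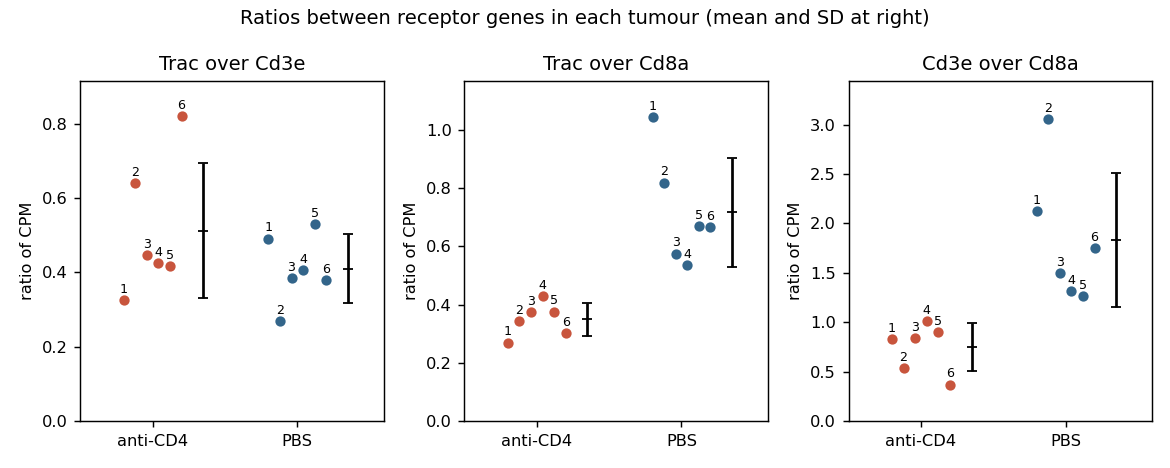
Ratio of CPM (vertical axes starting at 0) of Trac to Cd3e, Trac to Cd8a and Cd3e to Cd8a in each tumour, anti-CD4 at left and PBS at right of each panel, with the tumour number above each point and the mean and SD beside each group. Trac to Cd3e overlaps between the groups, and the ratios to Cd8a do not.

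Of the 8 receptor complex genes, all tested, 1 was called lower (Cd4, log2 fold change -2.26, edgeR adjusted p = 0.00298), and the median log2 fold change was -0.87, against -0.00033 for all tested genes. Of 7 T cell markers, all tested, 2 were called lower. These were Cd2 (log2 fold change -1.64, edgeR adjusted p = 0.0376) and Cd5 (-2.18, edgeR adjusted p = 0.00298). Of 3 CD4 T cell markers, 2 were tested and called lower, Cd4 and Icos (-2.25, edgeR adjusted p = 0.0311). Of 2 CD8 T cell markers, 0 were called, with log2 fold changes of -0.15 for Cd8a and 0.18 for Cd8b1. The Cd2, Cd5 and Icos calls were not repeated under the alternative settings. Of 6 genes of receptor recombination, 4 were tested and 0 called in edgeR, with a median of -0.25. Among them Dntt, which adds bases at the junctions, was too low to test, at 0 to 0.0807 CPM in anti-CD4 tumours and 0.125 to 0.663 CPM in PBS tumours. Its anti-CD4 values were at or under the level of 3 counts. Such a gap was found for 0.907% of all rows with a summed count of at least 1. Rag1, also too low to test, averaged 0.0936 CPM in anti-CD4 tumours and 0.0812 CPM in PBS tumours. Lig4 averaged 8.15 and 7.26 CPM, while 3 of the 4 tested genes had a negative log2 fold change. Of 9 genes of gamma delta and innate-like T cells, 8 were tested and 2 called lower, with a median of -0.69. These were Blk, a Src family kinase also made by B cells (log2 fold change -1.63, edgeR adjusted p = 0.0415), and 5830411N06Rik, a scavenger receptor gene of gamma delta T cells (-1.31, edgeR adjusted p = 0.0485). Both calls were lost without anti-CD4 2, 4, 5 or 6 and without PBS 2, 5 or 6, that of Blk also without PBS 4 and that of 5830411N06Rik also without PBS 3. They were lost as well with upper quartile scaling, with no filter and with the library total as a covariate, where the edgeR adjusted p was 0.377 for Blk (log2 fold change -1.11) and 0.380 for 5830411N06Rik (-1.03). Il17a was at 0 in all 12 tumours. Natural killer cell markers were lower in the mean as well: 6 of 7 were tested, 1 (Klre1, a lectin-like receptor subunit, log2 fold change -1.14, edgeR adjusted p = 0.0186) was called lower, Klra8 was at 0, and the list summed to 4.63 to 20.3 CPM in anti-CD4 tumours and 14.4 to 39.4 CPM in PBS tumours. The Klre1 call was lost without anti-CD4 2, 5 or 6 and with the library total as a covariate (edgeR adjusted p = 0.236). Natural killer cells can carry unrearranged receptor transcripts, and the part of these cells in the Trdc result was not tested. Of 4 B cell markers 3 were tested and 0 called in edgeR, and the list summed to 2.32 to 4.14 CPM in anti-CD4 tumours and 3.10 to 5.35 CPM in PBS tumours.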

How the data were processed

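Tumour RNA, cleared of ribosomal and globin transcripts, was read as paired ends, according to the protocols in the labels. Tools named by the submitters' processing notes are bcl2fastq 2.20.0.422 and kallisto, with build GRCm38.p6. Values are estimated counts for each symbol, as the authors deposited them, and 4.84% of the segment values were not whole (tolerance 1e-06). Neither annotation release nor strand setting was given in the sources used here. Counts were rounded and tested with edgeR 4.0.16 (R 4.3.3; TMM, filterByExpr, robust quasi-likelihood test, Benjamini-Hochberg over all tested genes), once with each row and once with the segments replaced by locus sums. Shares were compared by exact permutation, with all assignments enumerated in Python 3.11.15. With a replicate block, these were the 64 sign changes of the differences between same-numbered tumours. Wilson intervals came from SciPy 1.17.1. Alternatives were RLE and upper quartile scaling, other filters, DESeq2 1.42.0, limma 3.58.1 voom with sample weights, a replicate block, a depth covariate, other segment sets and leaving out tumours. All 174 segments matched GENCODE M21, the source of coordinates and sequences. Pairs of libraries within a group differed by a chi-square of 6.81 to 50.5 per degree of freedom. Of the 248 rows with these prefixes, 65 were at 0 and 9 between 0 and 1 count (highest 0.999), and 21 of the segments kept held exactly 1. The segments and the lists were chosen with earlier results of these data known. Named segments are the constant regions, the 5 of each class with the highest mean CPM, called segments and those with known roles; Trbv14, Trbv13-3 and the ratios were singled out after their values were seen. The rule also names Trgc1 to Trgc4, which are not row names here.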

Additional observations from a re-analysis of the deposited data

Results flagged for a closer look

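The values here belong to a tumour whose distance from the nearest other tumour of its group was large against the range of the group (past Dixon's 95% critical value, for quantities with at least 10 counts in the group). Chance gives about 1 such value in 20 groups if values follow a normal distribution, which low counts need not do. The flags were not set against the number of groups screened. Some flagged quantities contain others: the alpha locus contains the summed Traj segments, and these contain Traj17 and Traj38. PBS 6 was the highest of the PBS group for Trbc1 (4.80 CPM), Cd8a (7.64 CPM), Il23r (1.20 CPM), the alpha locus (11.3 CPM), the delta locus (3.44 CPM), the summed Traj segments (4.91 CPM), Traj17 (0.256 CPM), Traj38 (0.384 CPM), Trav8d-1 (0.256 CPM) and Trdv5 (0.219 CPM). In the anti-CD4 group, anti-CD4 4 was the highest for Trbc1 (2.85 CPM) and Trbv1 (0.577 CPM). Anti-CD4 3 was the highest for Trav13-2 (0.188 CPM) and Trbv13-2 (0.242 CPM), and anti-CD4 1 for Traj7 (0.144 CPM) and Rag2 (2.84 CPM). Among PBS tumours, PBS 1 was the highest for Trbv13-3 (0.417 CPM), PBS 2 for Maf (224.1 CPM), PBS 4 for Traj33 (0.156 CPM) and PBS 3 for the ratio of summed Trbj to beta constant regions (0.440).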

How the results depend on the processing

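Every log2 fold change of the constant regions and loci stayed negative under all alternatives run. The 1 segment called lower, beside 418 of 17940 genes, was 3 with DESeq2 (1157 of 17588 genes), 3 with limma voom with sample weights (3169 of 17940) and 3 without anti-CD4 3 and 4 (705 of 18243), namely Trac, Trbc1 and Trdc each time. It was 0 when the library total (log2) entered as a covariate (5 of 17940) and 0 to 2 when leaving out each tumour (31 to 1480 genes). Each of the settings with 3 called more genes lower than the 418, and the covariate called fewer. The alpha locus passed the threshold at -1.34 with the stricter filter, -1.32 with DESeq2, -1.69 with voom and sample weights, -2.03 without anti-CD4 3 and 4, and -1.57 for variable and joining segments only. The beta locus passed at -1.55 with voom and sample weights and -1.87 without anti-CD4 3 and 4. The delta locus lost its call at -1.01 with the depth covariate and kept it at -1.33 without anti-CD4 3 and 4. Leaving out each tumour gave -1.69 to -1.14 for the alpha, -1.53 to -0.92 for the beta and -1.20 to -0.84 for the delta locus. It gave -1.04 to 0.63 percentage points for the Trac share, whose sign turned only without PBS 3, -16.8 to -11.5 for the Trbc1 share and 1.62 to 5.80 for the Trdc share. Without anti-CD4 3 and 4 the Trdc share difference was 7.35 points (adjusted exact permutation p = 0.05). These 2 tumours had the highest segment levels of their group, so leaving them out lowered the anti-CD4 segment levels by choice. The calls and p-values of that setting are therefore no independent test of the difference. In segments with at least 5 counts, the anti-CD4 mean number was 38.3% of the PBS mean, against 64.3% for at least 1 count. Same-numbered tumours did not deviate together (correlations -0.41 to 0.23, 0 of 6 anti-CD4 tumours closest to their own number). The labels do not say whether the numbers are a pairing, and these correlations cannot exclude one. With a replicate block, 0 segments and 14 of 17940 genes were called lower, Blk (edgeR adjusted p = 0.131), 5830411N06Rik (0.154) and Klre1 (0.0781) lost their calls, and the delta locus was at -1.05 (edgeR adjusted p = 0.121). The Trgv2 row alone could be tested only with no filter, at -1.44 (edgeR adjusted p = 0.433). The causes of these shifts were not tested. With no filter 170 segments were tested and 1 was called lower in edgeR, beside 251 genes called lower of 27373 tested. With 99 segments under 10 counts, single segments have little precision. Upper quartile scaling gave edgeR adjusted p-values of 0.0504 for Blk and 0.0537 for 5830411N06Rik, and no filter gave 0.0521 and 0.0524.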
